A study of Arabidopsis thaliana with 6 samples.

Results

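Of 21428 probe sets measured in young Arabidopsis thaliana leaves, 72 were clearly lower in AN3-GR than in wild type and are described here, those with a gene name by function. A probe set was chosen when its highest AN3-GR array lay below its lowest wild type array and its wild type mean exceeded its AN3-GR mean by 0.7 or more on the log2 scale. Before 15 loci were left out by name, 86 probe sets met these thresholds, which is 0.401% of all. The 72 values contain 71 distinct sets, because the probe sets of AT2G07664 and ATMG01040 carry identical values. They comprise 68 protein-coding genes, 3 pseudogenes (AT2G07664, AT5G34900 and AT4G16870) and 1 locus, ATMG01040, that is absent from the gene table used for names. A gene symbol, or an NPF or LecRK name among the synonyms, is given there for 36 of the 72, called named here. The other 36 are given by locus identifier. The named ones include well-known genes such as PAP1, SWEET12 and DMR6, so the set cannot be called one of little-studied genes as a whole.

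AN3, also called GIF1, is a transcriptional coactivator that promotes cell division in leaf primordia together with growth-regulating factors. In AN3-GR it is joined to the steroid-binding domain of the glucocorticoid receptor, which holds the fusion protein inactive until dexamethasone is given. All plants were of the Columbia-0 accession, grown in vitro with 16 h of light and 8 h of darkness. At 8 days after stratification both genotypes, AN3-GR and wild type without the fusion, were moved to 5 µM dexamethasone for 8 h, and leaves 1 and 2 were then dissected, giving 3 arrays for each genotype. The promoter of the fusion and the number of lines or pooled plants are not given in the sources used here, and AN3-GR plants without dexamethasone were not analysed here. The labels do not name separate plantings for the replicates, so the spread between arrays may be partly technical.

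The label of the fusion line was checked with AN3 itself. Its expression values were 10.56, 10.02 and 10.55 on AN3-GR replicates 1 to 3 and 7.39, 6.98 and 7.61 on the wild type replicates, a difference of 3.05 (SE 0.19; limma, Benjamini-Hochberg (BH) adjusted p = 0.000303). The 3 listed mesophyll markers were not analysed here, and the photosynthesis genes RCA, LHCA1 and PSAG had lowest values on any array of 13.15, 12.13 and 12.92. The 4 flower and seed markers lay under 4.06, the lower quartile over all probe sets. Of 26 measured markers of root, meristem, trichome, stomata, vascular tissue, flower and seed, 0 passed limma with Benjamini-Hochberg adjustment, with or without the replicate block (at an unadjusted p under 0.05, 1 was lower, NAC101 at −0.23, and 1 higher, APL at 0.28). The 5 root markers had array means of 4.91 to 5.05 in AN3-GR and 4.95 to 5.04 in wild type, and the 3 trichome markers 6.06 to 6.15 and 5.62 to 6.20. In whole leaves, fewer cells of a type and less transcript per cell cannot be told apart. Array medians lay between 6.22 and 6.32.

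The named genes fall into 8 groups of function. Loci without a name were not placed by function, so the group sizes count named genes only. Genes placed under defence are linked to responses to pathogens and insects or to the hormones jasmonate and salicylic acid. Not all of them promote resistance. Aliphatic glucosinolates are sulfur-rich defence compounds that Brassicaceae make from methionine, and anthocyanins are red pigments made under stress and strong light. NPF and SWEET proteins carry nitrate, peptides, hormones and sugars across membranes, and abscisic acid is the hormone of water shortage. The rule used values and not function, apart from the loci left out by name.

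The differences that chose the 72 ranged from 0.70 to 1.54 with a median of 0.80, a fold of 1.74 (range 1.63 to 2.90). They are a description, since the same contrast made the selection. There were 10 probe sets with a difference of 1 or more: CORI3, ECS1, AT1G72920, AT1G60590, CGLD27, AT5G03350, AT5G44580, AT4G33666, FBA5 and AT3G16120. In the limma fit over all probe sets 19 of the 72 were called lower, beside 0.229% of all probe sets (0.56% were called higher), and with the replicate number as a block 69 were called, beside 3.03% (3.59% higher). Nothing is read from these counts. The gap between the lowest wild type and the highest AN3-GR array ran from 0.0031 for AT1G66090 to 0.81 for AT1G65490, and was under 0.2 for 20 probe sets and 0.5 or more for 9. Over all probe sets, 2014 or 9.4% had every AN3-GR array below every wild type array.

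Just inside the size threshold stood AT2G07664 and ATMG01040 at 0.707, ARR6 at 0.705, AT5G34900 at 0.703 and AT4G16870 at 0.703. Just outside, also with groups that did not overlap, stood AT1G28600 at 0.699, AT3G52800 at 0.697 and PBP1, a calcium-binding partner of the kinase PINOID, at 0.694. A further 38 probe sets differed by 0.7 or more with groups that overlapped. One of the 15 loci left out by name, CYP83A1 of glucosinolate synthesis, belongs to these, with a difference of 0.93. By level, 0 of the 72 had a mean under the lower quartile of all probe set means, 33 lay between it and the median, 23 between the median and the upper quartile and 16 above that. HKT1 and AT5G34900 had AN3-GR means of 3.88 and 3.83, under the lower quartile of 4.06, where RMA values compress differences. The difference of AT5G34900 fell to 0.43 without AN3-GR replicate 3. The arrays' own lower quartiles were 4.21 on wild type replicate 1, 4.13 on wild type replicate 2 and between 3.99 and 4.05 elsewhere, and the part of this in the weak members was not tested.

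**Figure D1:**
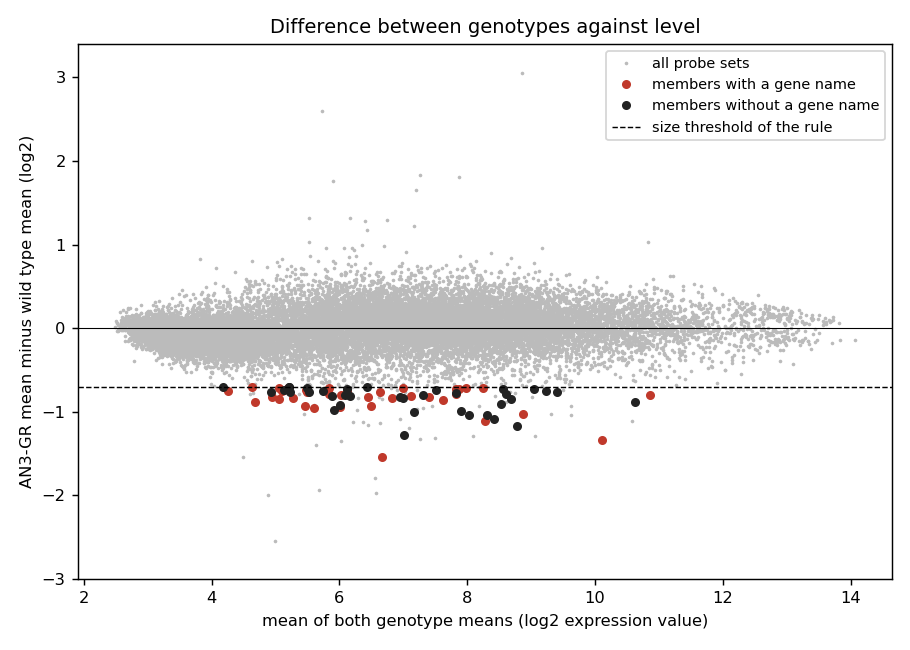
Difference between genotypes (AN3-GR mean minus wild type mean, log2) against the mean level of both genotypes (log2 expression value) for all 21428 probe sets in grey, with the 36 named and 36 unnamed chosen probe sets in red and black. The dashed line is the size threshold of 0.7 below zero, and grey points below it are the probe sets with overlapping groups and the loci left out by name.

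Defence genes gave the 2 largest differences. CORI3, a cystine lyase induced by coronatine and jasmonate, had values of 5.96, 6.58 and 5.18 on AN3-GR replicates 1 to 3 and 7.53, 7.83 and 6.97 on wild type replicates 1 to 3. Its wild type mean was 2.90-fold the AN3-GR mean. Replicate 2 was highest and replicate 3 lowest in both genotypes, and the lowest wild type array stood 0.39 above the highest AN3-GR array. ECS1, which encodes a small cell-wall protein studied in resistance to Xanthomonas, had 8.99, 10.33 and 9.01 in AN3-GR and 10.66, 11.17 and 10.51 in wild type, a 2.53-fold difference. The AN3-GR spread of ECS1 (SD 0.77) came from replicate 2, which lay 0.18 under the lowest wild type array.

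The other 5 defence genes differed by 0.76 to 0.84. BCS1, also called OM66, is a stress-induced ATPase of the outer mitochondrial membrane, with 4.62, 4.89 and 5.04 in AN3-GR and 5.30, 5.85 and 5.92 in wild type. LecRK-IV.3, a receptor kinase with a lectin domain outside the cell, had 6.57, 6.90 and 6.69 against 7.39, 7.80 and 7.40. TET8, a tetraspanin of the vesicles that plant cells secrete, was the strongest signal of all 72 in wild type, with 10.10, 10.30 and 10.96 in AN3-GR and 11.01, 11.16 and 11.60 in wild type. AN3-GR replicate 3 of TET8 came within 0.05 of wild type replicate 1. MES10 belongs to a family of methylesterases that act on methylated hormones, and had 5.49, 5.83 and 5.56 against 6.34, 6.39 and 6.56. DMR6 hydroxylates salicylic acid, and its loss makes plants resistant to downy mildew. Its values were 5.06, 5.24 and 5.02 in AN3-GR and 5.69, 5.96 and 5.95 in wild type, with SDs of 0.12 and 0.15 and a gap of 0.45.

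Genes related by name to these defence genes were read from the limma fit. The rule screened them too and did not choose them, and the families were formed after values had been seen. Of 16 other measured methylesterase genes, 1 was called lower, MES12, with 6.39, 6.40 and 6.31 in AN3-GR and 6.90, 7.04 and 6.98 in wild type (difference −0.61, SE 0.09; limma, BH-adjusted p = 0.0328). MES16 had a like difference of −0.61 with a larger error (SE 0.18; limma, BH-adjusted p = 0.141, and 0.0430 with the replicate block). The other methylesterases ranged up to 0.30, and the median of the 16 was −0.09. Over all probe sets 54.2% of the differences were negative, with a median of −0.02. Of 15 other tetraspanin genes, 14 had negative differences with a median of −0.19, and 0 were called. Of 41 other lectin receptor kinase genes 31 had negative values (median −0.09), and 0 were called. The most negative was LecRK-IV.4 at −0.48, which is also the chromosome neighbour of LecRK-IV.3 (limma, BH-adjusted p = 0.114, and 0.0264 with the replicate block). The neighbour on the other side, AT4G02400, was at 0.39. AT4G10500 and AT4G10490, 2 loci for which the gene table gives DMR6-like oxygenase as a synonym, had differences of 0.04 and 0.03 at levels under the lower quartile.

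Named transport genes numbered 6, and 4 of them belong to the NPF family of nitrate and peptide transporters. NPF6.4, an NPF member of the nitrate transporter branch, had 5.08, 5.48 and 4.83 in AN3-GR and 6.29, 6.36 and 5.61 in wild type, a 1.94-fold difference. Replicate 3 was the lowest of NPF6.4 in both genotypes, and its wild type value lay only 0.13 above AN3-GR replicate 2. NRT1.7, also called NPF2.13, loads nitrate into the phloem of older leaves and had 5.35, 5.74 and 5.25 against 6.30, 6.32 and 6.10. NPF3.1, which transports nitrite and gibberellin, had 7.44, 7.38 and 7.58 against 8.23, 8.20 and 8.14, with the smallest spread of the transport genes (SD 0.10 and 0.05). NPF6.2, also called NRT1.4, stores nitrate in the petiole and had 4.52, 4.76 and 4.80 against 5.25, 5.42 and 5.55.

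The other transport genes carry sugar and sodium. SWEET12 exports sucrose for phloem loading and had 5.19, 5.44 and 4.71 in AN3-GR and 5.92, 6.05 and 5.58 in wild type. HKT1 retrieves sodium from the xylem sap, and had 3.89, 3.73 and 4.02 against 4.41, 4.75 and 4.75, the weakest level among the named genes. SWEET11, the partner of SWEET12 in phloem loading, had a difference of 0.24, opposite in sign, and was not called. The 16 other SWEET genes had a median of −0.18, and 0 were called. SWEET2 at −0.52 came nearest (limma, BH-adjusted p = 0.0509, and 0.0244 with the replicate block).

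Among 21 other measured NPF genes, 18 had negative differences, with a median of −0.23 beside −0.02 over all probe sets. None passed the test over all probe sets. With the replicate block 3 were lower, NRT1.1 at −0.42, NPF1.2 at −0.40 and GTR1 at −0.47 (limma with the block, BH-adjusted p = 0.0404, 0.0464 and 0.0263). NRT1.1 is the main nitrate transporter and sensor, and GTR1 carries glucosinolates. NRT1:2, a low-affinity nitrate transporter that also carries abscisic acid, was at 0.52, with an adjusted p of 0.0968 in limma with Benjamini-Hochberg adjustment and 0.0396 with the block. Without the block GTR1 had an adjusted p of 0.0737.

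**Figure D2:**
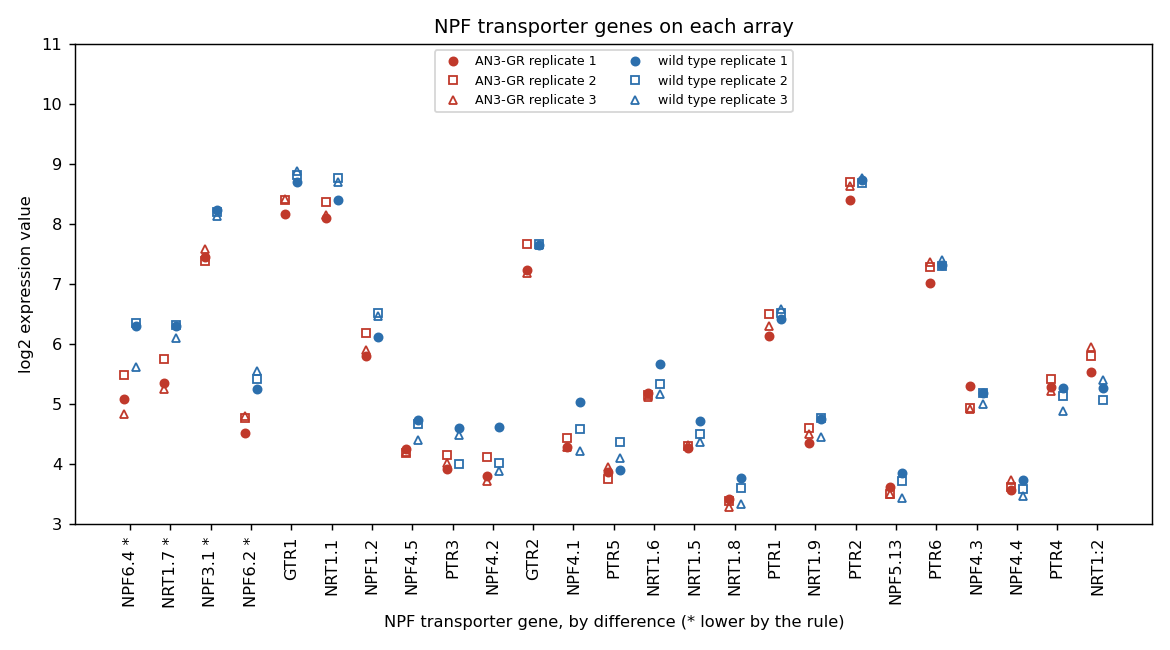
Expression value on each array (log2, vertical axis) for 25 measured NPF genes, ordered from the most negative to the most positive difference, with AN3-GR in red, wild type in blue and a marker shape for each replicate number. The 4 genes with an asterisk were chosen by the rule, and the row ends at NRT1:2, whose AN3-GR arrays all lie above its wild type arrays.

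Genes of aliphatic glucosinolates and their sulfur supply numbered 5, at low to middle levels. AKN2, also called APK2, makes the sulfate donor used to finish the glucosinolate core, and had 6.25, 6.11 and 5.73 in AN3-GR and 6.88, 7.29 and 6.73 in wild type. FMO GS-OX3 oxygenates the sulfur of the side chain and had 4.65, 4.69 and 4.56 against 5.48, 5.78 and 5.18. IPMI1 and IPMI2 encode small subunits of the isopropylmalate isomerase that lengthens methionine. IPMI1 had 4.71, 4.32 and 4.55 against 5.49, 5.71 and 4.87, and IPMI2 had 5.60, 5.87 and 5.76 against 6.40, 6.92 and 6.16. GSTF11, a glutathione transferase expressed with the pathway, had 4.88, 4.62 and 4.70 against 5.42, 5.78 and 5.24. Wild type replicate 2 was the highest and wild type replicate 3 the lowest wild type array for all 5, while the AN3-GR arrays had no common order.

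Close relatives of these enzymes did not all go the same way. The remaining isomerase small subunit, AT2G43090, had a difference of 0.13 at a high level of 11.04, and 3 other APS kinase genes ranged from −0.25 to 0.03. FMO GS-OX5 and FMO GS-OX4 had 0.17 and 0.03, and FMO GS-OX1 and FMO GS-OX2 had −0.31 and −0.29. Of the 7 other GSTF genes 5 were negative, led by GSTF12 of anthocyanin transport at −0.95, with a median of −0.32. None of these relatives was called, while 3 GSTF genes passed with the replicate block (GSTF8, GSTF10 and GSTF12).

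Regulators of anthocyanin synthesis numbered 3 and included genes that act in opposite ways. PAP1 and MYB90, also called MYB75 and PAP2, activate the late anthocyanin genes, and MYBL2 represses them. PAP1 had 6.41, 6.24 and 5.48 in AN3-GR and 7.09, 7.09 and 6.42 in wild type. MYB90 had 5.64, 4.45 and 4.90 against 6.29, 5.86 and 5.66, and MYBL2 had 5.33, 5.68 and 5.44 against 6.28, 6.11 and 6.19. The groups of PAP1 and MYB90 were separated by 0.01 only, and the PAP1 difference fell to 0.55 without AN3-GR replicate 3, whereas MYBL2 had a gap of 0.43. The highest AN3-GR array of both was replicate 1.

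The 6 other measured genes of the late anthocyanin pathway all had negative differences, with a median of −0.81, and 0 passed in limma with Benjamini-Hochberg adjustment. UF3GT, which glycosylates the pigment, was at −1.19 and DFR, which makes its leucoanthocyanidin precursor, at −1.13. GSTF12 was at −0.95, AT4G14090 at −0.68 and AT5MAT at −0.51. The arrays of DFR overlapped, with 6.56, 5.70 and 5.14 in AN3-GR and 7.48, 7.28 and 6.02 in wild type, where replicate 3 was the lowest in both. With the replicate block 4 of the 6 were lower (DFR, UF3GT, AT4G14090 and GSTF12; limma with the block, BH-adjusted p = 0.0204, 0.0185, 0.0185 and 0.0185). TT8, a bHLH partner of the MYB activators, was at −0.17 and a weak level of 3.81. MYB113 and MYB114, which lie in the same clade as PAP1, were at −0.33 and −0.17, and neither was called.

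Genes of abscisic acid numbered 4. RD20, a calcium-binding caleosin of lipid droplets induced by drought, had 4.29, 4.43 and 3.99 in AN3-GR and 4.92, 4.80 and 5.65 in wild type. CYP707A3 inactivates the hormone by hydroxylation and had 7.06, 7.64 and 7.59 against 7.89, 8.65 and 8.13. PP2CA, a protein phosphatase that holds abscisic acid signalling off, had 7.33, 7.60 and 7.61 against 8.14, 8.19 and 8.38. PUB19, a ubiquitin ligase that restrains drought responses, had 5.98, 6.71 and 6.08 against 7.01, 7.20 and 6.87. CYP707A3, PP2CA and PUB19 thus encode proteins that break down the hormone or dampen its signalling. This describes the proteins, and how the 4 transcripts respond to the hormone was not measured here.

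Their relatives and the wider response were measured too. The 3 other CYP707A genes ranged from −0.30 to −0.16 and were not called. Of 8 other clade A phosphatase genes, ABI2 was at −0.47, ABI1 at −0.38 and HAB2 at 0.21, with 0 called in either fit. Of 19 other plant U-box genes 12 had negative values (median −0.07), and 0 were called. All 9 measured genes of cold and abscisic acid response had negative differences (median −0.29), such as COR15A at −0.76, LTI30 at −0.58, ERD10 at −0.45 and RAB18 at −0.26. None of the 9 passed in limma with Benjamini-Hochberg adjustment, and 4 did with the replicate block (COR15A, COR15B, LTI30 and ERD10).

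Genes placed under metabolism numbered 4 and had the highest median difference of the groups, 0.98. CGLD27, a protein conserved across the green lineage, had 7.73, 8.02 and 7.41 in AN3-GR and 8.37, 9.11 and 9.02 in wild type. A role of CGLD27 in metabolism was not established here. FBA5, an aldolase of glycolysis, had 8.33, 8.86 and 7.89 against 9.30, 9.79 and 9.06, with replicate 2 highest and replicate 3 lowest in both genotypes. ACA1, here the alpha carbonic anhydrase of that name, had 5.70, 5.93 and 4.98 against 6.58, 6.64 and 6.21 in the same order. FDH, the mitochondrial formate dehydrogenase, had 6.56, 6.63 and 6.75 against 7.14, 7.38 and 7.56. Of the other aldolases, the abundant chloroplast aldolases FBA1 and FBA2 had −0.45 and −0.14 and the cytosolic FBA8 and FBA6 had 0.04 and 0.01. None of these 4 aldolases was called without the replicate block, and whether FBA5 differs from them was not tested. All 5 other alpha carbonic anhydrase genes were negative, from −0.36 to −0.15, and 0 were called.

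The cell wall gave 2 named genes. FLA9, a fasciclin-like arabinogalactan protein, had 7.02, 7.33 and 7.22 in AN3-GR and 7.92, 8.19 and 8.02 in wild type, with a gap of 0.59 and SDs of 0.16 and 0.14. XTH18, an enzyme that cuts and rejoins xyloglucan, had 4.71, 4.79 and 5.00 against 5.04, 5.65 and 5.95, and its gap was 0.03. Their families were otherwise near zero, with medians of −0.07 over 16 other FLA genes and −0.06 over 32 other XTH genes and 0 called. FLA12 at −0.49 and the touch-induced TCH4 at −0.51 were the most negative of these.

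Regulators numbered 5 and had the smallest median difference, 0.72. EDA39, also called IQM1, encodes a calmodulin-binding protein and had 6.26, 6.21 and 6.73 in AN3-GR and 6.98, 7.38 and 7.34 in wild type. CYCP2;1, a P-type cyclin, had 6.87, 6.98 and 7.11 against 7.84, 7.76 and 7.85, with SDs of 0.12 and 0.05 and a gap of 0.64. The heat-shock factor HSFB2A had 7.45, 7.39 and 8.02 against 8.24, 8.36 and 8.43. DOF1, a zinc-finger transcription factor, had 7.72, 7.93 and 8.01 against 8.42, 8.77 and 8.63. ARR6, a negative regulator of cytokinin signalling of the type-A class, had 4.31, 4.43 and 4.08 against 4.64, 5.25 and 5.04, close to the lower quartile. Of the 6 other P-type cyclins 5 were between −0.18 and −0.06 and cycp3;1 was at 0.17, and of 19 other heat-shock factors 11 had negative values (median −0.03). DOF2 was at −0.28. None of these relatives was called, and HSFC1 at −0.43 was the most negative heat-shock factor.

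**Figure D3:**
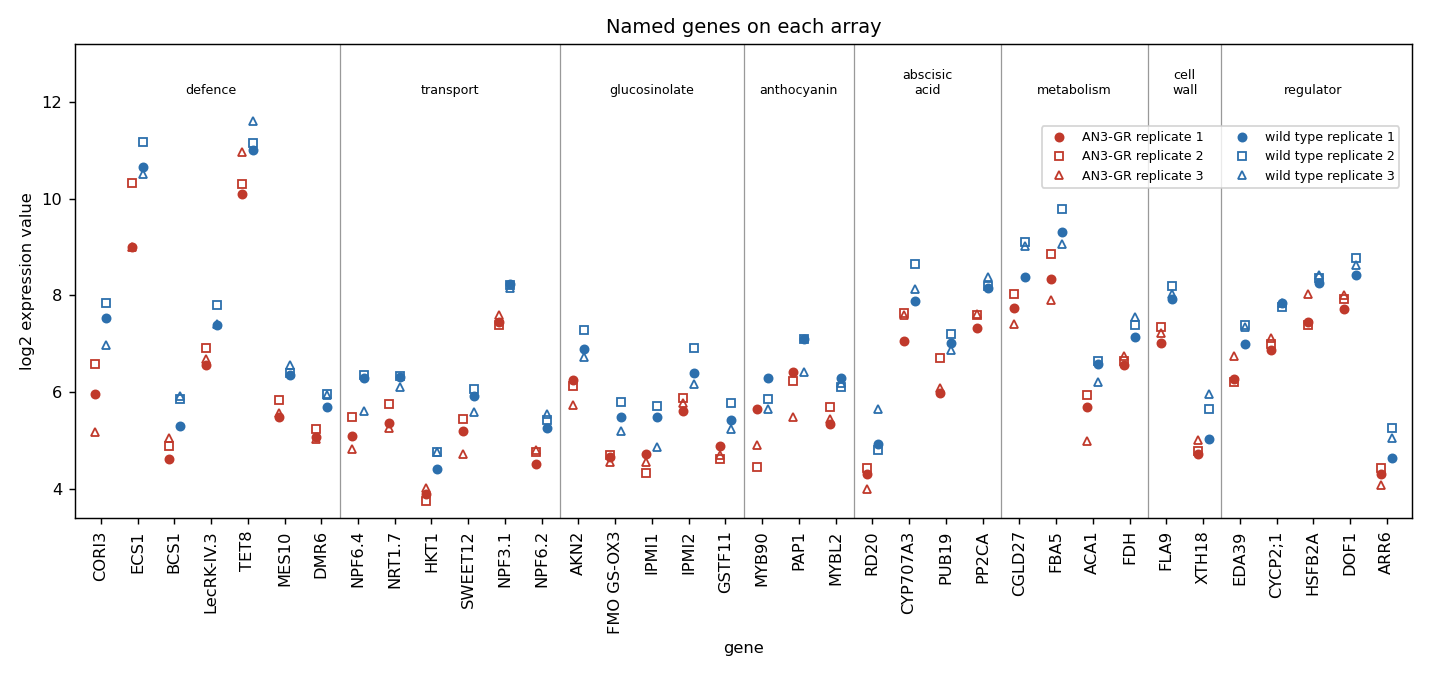
Expression value on each array (log2, vertical axis) for the 36 named genes in 8 groups of function, with AN3-GR in red, wild type in blue and circles, squares and triangles for replicates 1, 2 and 3. The blue points of a gene all lie above its red points, as the rule required, by as little as 0.01 for MYB90 and PAP1 and by 0.64 for CYCP2;1.

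The 36 loci without a name in the gene table are given by values alone. Their differences ran from 0.70 to 1.28 with a median of 0.79. AT1G72920 had 6.13, 6.83 and 6.15 in AN3-GR and 7.25, 8.09 and 7.60 in wild type. AT1G60590 had 7.97, 8.49 and 8.13 against 9.24, 9.35 and 9.50, with a gap of 0.75. AT1G65490 had 7.49, 7.23 and 7.50 against 8.46, 8.31 and 8.42, and its gap of 0.81 was the widest of all 72. The largest SD of these last 2 loci within a genotype was 0.27. Their gaps are a description only, since the rule required groups that do not overlap.

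Another 4 unnamed loci differed by 1 or more. AT5G03350 had 7.59, 8.28 and 7.77 in AN3-GR and 9.02, 9.35 and 8.53 in wild type. AT5G44580 had 7.78, 8.07 and 7.49 against 8.36, 9.15 and 8.97, and AT4G33666 had 7.12, 7.88 and 7.54 against 8.24, 8.76 and 8.65. In all 3 loci replicate 2 was the highest array in both genotypes. AT3G16120 had 6.55, 6.89 and 6.57 against 7.65, 7.95 and 7.43.

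The differences of the next unnamed loci were 0.98 for AT2G32150, 0.91 for AT1G66090, 0.91 for AT5G19240, 0.89 for AT3G62550, 0.85 for AT3G06750, 0.83 for AT3G55710, 0.83 for AT3G07010, 0.81 for AT5G24210, 0.81 for AT4G37560, 0.81 for AT4G29700 and 0.80 for AT4G19520. AT3G62550 was the strongest of all unnamed loci, with 9.88, 10.69 and 9.97 in AN3-GR and 10.85, 11.38 and 10.98 in wild type. AT1G66090 had the smallest gap, with 5.11, 5.54 and 5.995 against 5.998, 6.26 and 7.12, so that AN3-GR replicate 3 and wild type replicate 1 were nearly equal. Its difference became 0.58 without wild type replicate 3. Between 0.73 and 0.79 stood AT5G01015, AT1G72940, AT1G78070, AT1G22160, AT3G53960, AT5G48490, AT1G55450, AT1G48100, AT4G17470, AT3G52360, AT2G14900, AT1G52870 and AT1G10640. AT5G48540 was at 0.72, and the shared probe set of AT2G07664 and ATMG01040, AT5G34900 and AT4G16870 stood at the threshold as given above.

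Replicates with the same number tended to be high together in both genotypes, a feature that the rule did not use. The same replicate number was the highest array in AN3-GR and in wild type for 56 of the 72, or 77.8%, beside 48.2% of all probe sets. Variable genes show this more often, and among 1640 probe sets outside the set with an SD of 0.2 or more in both genotypes the share was 69.9%. Of the 35 chosen probe sets with such SDs it was 82.9%. These shares describe arrays that share their number, and the genes are not independent of each other.

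Most of the shared order came from replicate 2. It was the highest array in both genotypes for 35 of the 72, or 48.6%, beside 17.6% of all probe sets. Among variable probe sets, with an SD of 0.2 or more in both genotypes, the share was 57.1% inside the set and 28.4% outside it. Among the 35 were CORI3, ECS1, FBA5, ACA1, NPF6.4, NRT1.7, SWEET12, LecRK-IV.3, DMR6 and PUB19. Replicate 3 was the highest in both for 18, or 25%, among them TET8, BCS1, PP2CA, HKT1, NPF6.2, FDH, XTH18, HSFB2A and CYCP2;1. Among the variable probe sets the share of replicate 3 was 22.9% inside the set and 36.0% outside it. Replicate 1 was the highest in both for 3, which were MYB90 and the shared probe set of AT2G07664 and ATMG01040. The median deviation of the 72 from the genotype mean was 0.15 on AN3-GR replicate 2 and 0.15 on wild type replicate 2, against −0.13 and −0.15 on the replicates numbered 1.

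**Figure D4:**
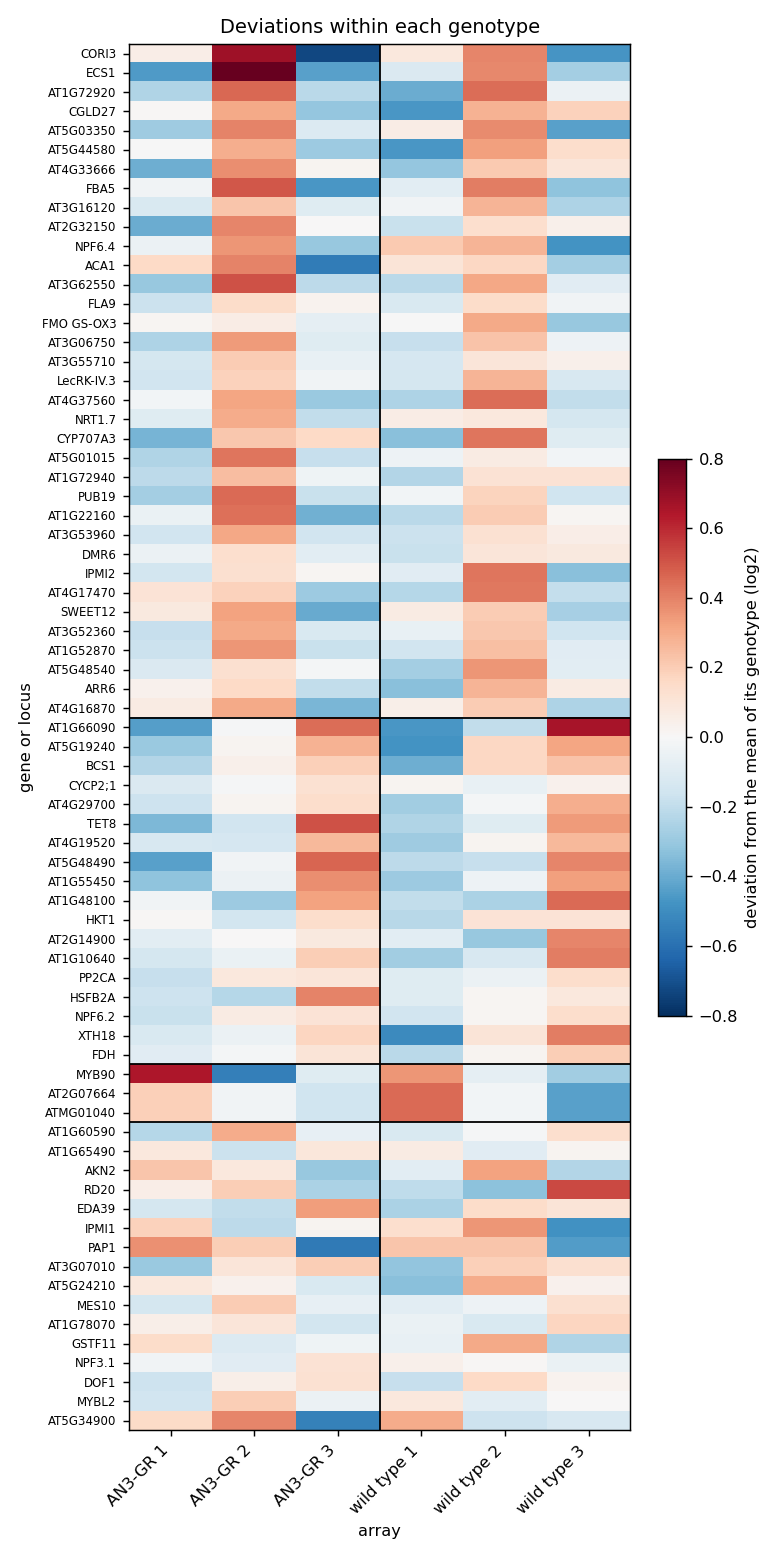
Deviation of each array from the mean of its genotype (log2, colour scale from −0.8 to 0.8) for the 72 probe sets in rows and the 6 arrays in columns. Black horizontal lines separate, from the top, the 35 rows highest on replicate 2 in both genotypes, the 18 highest on replicate 3, the 3 highest on replicate 1 and the 16 without a common highest number.

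Over all probe sets, deviations of arrays with the same number correlated at 0.161, 0.416 and 0.494 for numbers 1, 2 and 3 across genes, and over the 72 at 0.562, 0.481 and 0.650. The labels do not say that arrays of the same number form a pair. Within each number the AN3-GR array was set against the wild type array of that number. The median difference of the 72 was −0.79, −0.83 and −0.88 on numbers 1, 2 and 3, and the value nearest zero in any number was −0.15. In every number all 72 were thus lower in AN3-GR, which follows from groups that do not overlap.

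The choice was also repeated without the arrays of one replicate number, and the chosen probe sets were read on those arrays. When the rule was applied to replicate numbers 2 and 3, it chose 107 probe sets, and on the arrays numbered 1 their median difference was −0.65, beside −0.83 on the arrays that chose them. All 107 were below zero there, beside 51.9% of all probe sets, and 42 or 39.3% were at −0.7 or less, beside 1.79%. With number 2 held out, 104 of 106 were below zero (98.1%, beside 54.7% of all) with a median of −0.64, and 44.3% reached −0.7, beside 1.12% of all. With number 3 held out, 115 of 124 were below zero (92.7%, beside 45.3% of all) with a median of −0.61, and 40.3% reached −0.7, beside 0.947%. The held-out medians were smaller than those on the arrays that made the choice in each case, and 36 of the 72 were chosen all 3 times. With numbers 1, 2 and 3 held out, 61, 57 and 54 of the chosen probe sets were among the 72. For these a value below zero on the held-out arrays was fixed by the full rule, which used all arrays. The shares are therefore no separate measure of the 72. All arrays were normalised together, so a held-out array is not fully separate.

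**Figure D5:**
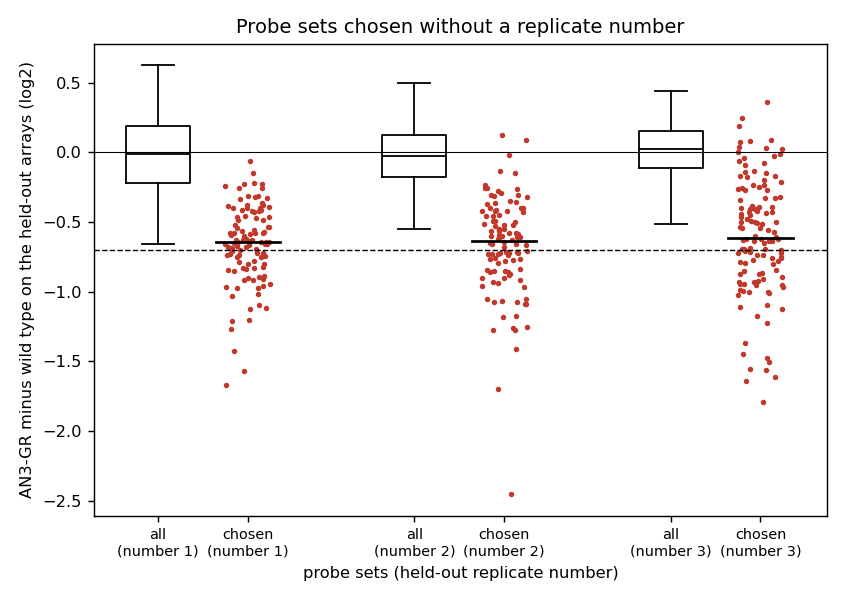
Difference AN3-GR minus wild type on the arrays of one held-out replicate number (log2, vertical axis), for all probe sets as boxes (median, quartiles and whiskers to a set low and high percentile, with values beyond them not drawn) and for probe sets chosen on the other numbers as red points with a bar at their median. The medians of the chosen probe sets were −0.65, −0.64 and −0.61, above the dashed line at −0.7.

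Whether the rule was met depended on a single array for many. The rule was met by 24 of the 72 whichever single array was left out. Of these, 12 have a name, namely CORI3, ECS1, CGLD27, FBA5, NPF6.4, AKN2, FLA9, BCS1, EDA39, CYCP2;1, MES10 and DMR6. No abscisic acid or anthocyanin gene is among the 24. Without AN3-GR replicate 1, 60 probe sets met the rule, 49 of them among the 72, and without wild type replicate 1 it was 150, with 67 of the 72.

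Genes next to the chosen ones on the chromosome had a median difference close to that of all probe sets. The 71 members in the gene table lie on chromosomes 1 to 5 with 21, 7, 15, 13 and 15 members, and their nearest measured loci on both sides make 140 distinct neighbours. Other members and the loci left out by name were passed over in favour of the next measured locus, so that these lower genes are not among the neighbours. This applies to AT1G72920 and AT1G72940, which stand next to each other among the measured loci, and to AT5G48490 beside DIR1. Their median difference was −0.04, beside −0.02 over all probe sets, and 83 or 59.3% were below zero, beside 54.2% of all probe sets. In limma with Benjamini-Hochberg adjustment 1 was called lower and 0 higher, while 21 were lower and 4 higher at an unadjusted p under 0.05. The 21 were 15% of the neighbours, beside 7.86% of all probe sets. With the replicate block 10 were lower and 2 higher, and the lower ones were 7.14% of the neighbours beside 3.03% of all probe sets. The called neighbour was AT4G33660, beside AT4G33666, with 8.89, 8.93 and 8.95 in AN3-GR and 9.51, 9.57 and 9.60 in wild type (difference −0.64, SE 0.09; limma, BH-adjusted p = 0.0276).

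The chosen loci AT1G72920 and AT1G72940 have 2 genes between them in the gene table, and 0 of these were measured. The next measured locus before them, AT1G72900, had 5.08, 5.77 and 6.11 in AN3-GR and 6.09, 7.10 and 7.14 in wild type. Its difference of −1.12 was larger than most, but AN3-GR replicate 3 lay above wild type replicate 1, and it was not called (SE 0.32; limma, BH-adjusted p = 0.122). AT5G48490 lies directly beside DIR1, a lipid transfer protein gene among the loci left out by name.

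Lists of response genes, read from the same fit, were chosen with earlier results of these data known, so their shares are a description. Over 6 lists, 54 genes outside the set were measured, with 38 or 70.4% below zero and a median of −0.15, beside 54.2% and −0.02 over all probe sets. In limma with Benjamini-Hochberg adjustment 1 was lower and 0 higher, while 13 were lower and 3 higher at an unadjusted p under 0.05, and the lower ones made 24.1% of the genes beside 7.86% of all probe sets. With the replicate block 15 were lower and 2 higher, and the lower ones made 27.8% beside 3.03%. The called gene was LOX4, a lipoxygenase of jasmonate synthesis, with 6.05, 6.24 and 6.20 in AN3-GR and 6.59, 6.98 and 6.94 in wild type (difference −0.67, SE 0.12; limma, BH-adjusted p = 0.0498).

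The lists differed in their medians. All 13 other jasmonate and wound response genes had negative differences (median −0.22), such as LOX2 at −1.11, AOS at −0.46, CLH1 at −0.41 and LOX3 at −0.40, and 5 passed as lower with the replicate block. The dark and sugar starvation list had a median of −0.0016 over 8 genes, with DYL1 at −0.47 and EXL4 at 0.67. The phosphate starvation list had 0.07 over 12 genes, with SRG3 at 0.72, PAP17 at 0.48 and SPX1 at 0.47, and the leaf senescence list had −0.07 over 6 genes, with SAG12 at 0.07. Of these 3 lists 0 genes were called, and with the replicate block EXL4 and SRG3 passed as higher and DYL1 and NAP as lower.

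Over the name families of the chosen genes, 245 relatives outside the set were measured, with 174 or 71.0% below zero and a median of −0.11, beside 54.2% and −0.02 over all probe sets. In limma with Benjamini-Hochberg adjustment 1 was lower, MES12, and 0 were higher, while 37 were lower and 5 higher at an unadjusted p under 0.05. The lower ones made 15.1% of the relatives, beside 7.86% of all probe sets. With the replicate block 17 were lower and 1 higher, and the lower ones made 6.94% beside 3.03%. Beside the genes given above, these were PUB25 at −0.44, TET11 at −0.45, RLK at −0.36, FBA1, FLA12, TCH4 and HSFC1. The families were formed after values had been seen, so these shares describe them and nothing more.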

How the data were processed

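Total RNA of leaves 1 and 2 was measured on 6 Affymetrix ATH1 arrays. The deposited table holds log2 expression values, made by the authors with RMA and limma per the submitters' processing notes (no versions), and its probe sets are named by gene locus, per the file headers. Array signals have no counts, so the number of arrays limits the precision. The table was used as deposited, with 0 columns of other samples. Names and gene order came from a RefSeq gene table of TAIR10.1, where 21231 loci matched and 197 did not. No protein or promoter sequences were used here, so the planned closest protein relatives and promoter letters were not run, and families of shared names, formed and corrected after values had been seen, took the place of the relatives.

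The genotype contrast was fitted in limma 3.58.1 under R 4.3.3 (lmFit and eBayes, two-sided, no covariate, all 6 arrays), with Benjamini-Hochberg adjustment over all probe sets and calls at an adjusted p under 0.05. The fit was tested on simulated data. A difference is AN3-GR minus wild type unless a wild type excess is stated. Replicate numbers in the labels are shared by both genotypes. Deviations of same-numbered arrays correlated above 0.1 for all 3 numbers, so the number was used as a block in an alternative fit. Other alternatives were scaling, a filter on weak signals, another prior variance, a stricter size and leaving out arrays. The members and lists were chosen with earlier results of these data known, so no p-value is given for a member. Every member is listed, and those with a name in the gene table are placed by function. Array values are given for the members with the largest differences in each group and for other named members, and of other genes those related to them by name, neighbours and called list genes are named. The photosynthesis genes and the genes with overlapping arrays in the closing observations were chosen after their values were seen.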

Additional observations from a re-analysis of the deposited data

How the results depend on the processing

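The number of chosen probe sets, 72, became 10 with a minimum difference of 1, 101 with the arrays centred on their medians (all 72 included), 83 after another quantile normalization (64 included), and 124 without replicate 3 of both genotypes; leaving out 1 array gave 60 to 150, where AN3-GR replicates 2 and 3 gave 149 and 139 and wild type replicates 1 and 3 gave 150 and 119. Of 576 recomputed differences of the members, 0 reversed and 0 moved by 1 SD or more, and the largest move was 0.444. These zeros were largely fixed in advance, since the groups were chosen not to overlap. Leaving out 1 of 3 arrays also moves a mean by less than the SD of its group, so the zeros measure no stability. Still, 3 differences shrank by over 1.5 times. They were AT1G66090 from −0.91 to −0.58 without wild type replicate 3, and PAP1 from −0.83 to −0.55 and AT5G34900 from −0.70 to −0.43 without AN3-GR replicate 3. The whole-table counts, 49 lower and 120 higher, became 650 and 770 with the replicate block and 178 and 380 with an intensity trend and robust prior. Lower calls were 101 after another quantile normalization and 74 without the weakest 25% of probe sets. Centring gave 70 lower and 69 higher. Leaving out 1 array gave 4 to 311 lower and 5 to 468 higher, the highest of each without wild type replicate 3 and the rest at most 12 and 14. The calls among neighbours, list genes and name families, 1 each, became 12, 17 and 18 with the block, 2, 2 and 4 with the trend and robust prior, and ranged over 0 to 3, 0 to 4 and 0 to 7 with 1 array left out, above 0 only without wild type replicate 3. The families had 2 calls with centring, with another quantile normalization and without the weakest 25%. The neighbours' median was −0.0765 with centring. The held-out medians with centring were −0.748 for number 1 and −0.552 for number 3. The cause of these changes was not tested. The closest protein relatives and the promoter letters were not run, since no sequences were used here. The settings for families, shared probes and omitted number pairs were added after seeing the data.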

Other observations

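The 38 probe sets with a difference of 0.7 or more and overlapping groups include genes of iron deficiency, 4 of which are given here. Their overlapping arrays kept these 4 out of the set. Whether other genes of iron deficiency are inside the set was not examined. The bHLH factor gene bHLH39, which activates iron uptake, had 3.57, 4.56 and 3.54 on AN3-GR replicates 1 to 3 and 3.81, 7.02 and 6.85 on wild type replicates 1 to 3. Its relative BHLH101 had 3.49, 4.42 and 3.27 in AN3-GR and 3.97, 6.12 and 5.72 in wild type. ORG1, which responds with them, had 7.19, 8.27 and 6.89 against 7.64, 9.55 and 9.03, and the ferric reductase gene FRO3 had 5.90, 6.98 and 5.83 against 5.96, 7.82 and 7.46. In all 4 genes wild type replicate 1 lay within the range of the AN3-GR arrays while wild type replicates 2 and 3 lay above every AN3-GR array. None passed in limma with Benjamini-Hochberg adjustment (BH-adjusted p = 0.204, 0.162, 0.206 and 0.366).

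Several defence regulators stood in the same place. WRKY33 had a wild type excess of 0.83, WRKY70 of 0.82, CBP60G of 0.82 and MPK3 of 0.74, with groups that overlapped. In the opposite direction, 64 probe sets met the mirror of the rule, with every AN3-GR array above every wild type array and a difference of 0.7 or more.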
